A study of Mus musculus with 9 samples.

Results

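Gene expression in colon macrophages of p47phox-/- mice was compared with that in macrophages of wild-type (WT) mice. The comparison used 3 p47phox-/- and 3 WT libraries. A gene was included when its normalized count, the reads on the gene divided by a factor for the depth of the library, was at least 10 in at least 3 of these 6 libraries. This left 13958 of the 42454 entries of the deposited table. The cells had been sorted as macrophages low in Ly6C and positive for MHC class II from the lamina propria, the connective tissue under the gut epithelium, of the colon. All mice were 6 weeks old. A group of 3 gp91phox-/- libraries of the same sort shared the estimate of spread in the statistical fit, and its values are given beside some results. The strain, the Ncf1 allele, other treatments and the number of animals behind a library are not given here. The p-values therefore measure the spread between these libraries, which may be partly technical. The series title places the comparison in work on reactive oxygen species and the development of intestinal macrophages.

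The phagocyte NADPH oxidase transfers electrons from NADPH to oxygen and so makes superoxide, from which other reactive oxygen species form. Its catalytic core in the membrane is gp91phox with p22phox, and the cytosolic organiser p47phox, encoded by Ncf1, brings the other cytosolic subunits to that core when the cell is activated. Macrophages of the colon lamina propria are replenished largely from blood monocytes. As they mature they take up dying cells and bacteria, make interleukin 10, and normally respond weakly to microbial products.

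The 6 libraries held 31141107 to 38036453 reads on genes. WT libraries had a read on 15825 to 17280 genes. p47phox-/- replicate 1 had a read on 17754 genes, but replicates 2 and 3 on only 14323 and 14268 at similar depth. These last 2 libraries lay at opposite ends of the second principal component, at -98.6 and 79.2, while the other 7 lay between -14.9 and 18.5. The median SD within a group was 0.324 on the log2 scale for p47phox-/-, against 0.247 for WT and 0.202 for gp91phox-/-. The fit pools the spread of all these groups, so its SE values are not those of the p47phox-/- and WT libraries alone. All 166 genes called below kept their direction without replicates 2 and 3 together, but only 17 genes were then called. Every entry of chromosomes X (1362 entries), Y (190) and the mitochondrial genome (24) had 0 reads in all libraries, so X-linked genes such as Cybb, which encodes gp91phox, could not be read. The 15 defining macrophage genes were abundant in all 6 libraries, and limma and edgeR called none, while limma called 1.19% of all tested genes. An unadjusted limma p under 0.05 was found for 3 of the 15, against 2108 of all 13958 tested genes. DESeq2 called 1 of the 15, against 668 of all tested genes. The summed normalized count of the 15 genes was 1573867 to 2060913 in WT and 1611437 to 2322495 in p47phox-/- libraries. Cells were sorted as macrophages positive for MHC class II, so the sort itself selected for some of these genes.

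The targeted gene was lower in every p47phox-/- library. Ncf1 (chr5:134220053-134229628 in GRCm38.p6) had normalized counts of 10066, 8989.8 and 10815 in the WT libraries and 2718, 3733 and 3133 in the p47phox-/- libraries. The groups were widely separated, although reads on the gene remained in every p47phox-/- library (log2 fold change -1.65 ± 0.14 (SE), adjusted p = 0.000373; limma with Benjamini-Hochberg adjustment, as throughout). Since the allele is not given, the counts do not show which stretch of the transcript the remaining reads came from. Of the 9 tested genes of the oxidase and its relatives, Ncf1 alone was called (1.19% of all tested genes were called). Including Ncf1, values of 3 members lay wholly below WT and none wholly above, against 8.5% and 9.48% of all tested genes. An unadjusted p under 0.05 was found for 4 members, against 2108 of all 13958 tested genes. Cyba, which encodes p22phox, had 10405, 9303 and 8838 in WT and 9829, 16098 and 12066 in p47phox-/- libraries, and these ranges overlapped. The log2 fold changes of Ncf4, Rac1, Rac2, Noxo1, Cybc1 and Hvcn1 were between -0.40 and 0.09, and Cybc1 and Rac2 were the other members without overlap (adjusted p = 0.236 and 0.294). No gene other than Gm42031, a noncoding RNA described further on, had a smaller adjusted p than Ncf1.

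Across all tested genes, 166 were called at an adjusted p under 0.05, which is 1.19% of 13958. Of these, 90 rose in p47phox-/- macrophages (0.645%) and 76 fell (0.544%). The calls were modest in size: the median log2 fold change was 1.16 among genes that rose and -1.04 among genes that fell, and 64 and 39 of them changed by more than 2-fold. The median of all tested genes was -0.02. In sorted bulk samples, fewer cells of a type and less RNA per cell cannot be told apart. The WT and p47phox-/- values did not overlap for any of the 166. Separation alone was common, since values of 1323 tested genes lay wholly higher (9.48%) and of 1187 wholly lower (8.5%) in p47phox-/-. A fit of only the 6 libraries called 121 genes (0.867%), of which 105 were among the 166. Leaving out 1 library at a time gave 48 to 231 calls, and 41 genes were called in all 9 such fits. The lowest count came without WT replicate 3 (48, of which 26 higher and 22 lower), followed by 61 without p47phox-/- replicate 3, and the highest without p47phox-/- replicate 1 (85 higher and 146 lower). The split between directions moved by more than 10 percentage points without 2 other libraries too, to 68 higher and 33 lower without WT replicate 1, and 44 and 61 without WT replicate 2. TMM scaling gave 87 higher and 104 lower. Of the 166, 135 (81.3%) were also called by edgeR and all 166 by DESeq2 on the recovered reads. Only 85 of the tested genes reached a count of 10 in libraries of 1 group alone, and 8 of the called genes were among them. For these 8 the filter itself excluded an overlap between the groups.

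**Figure D1:**
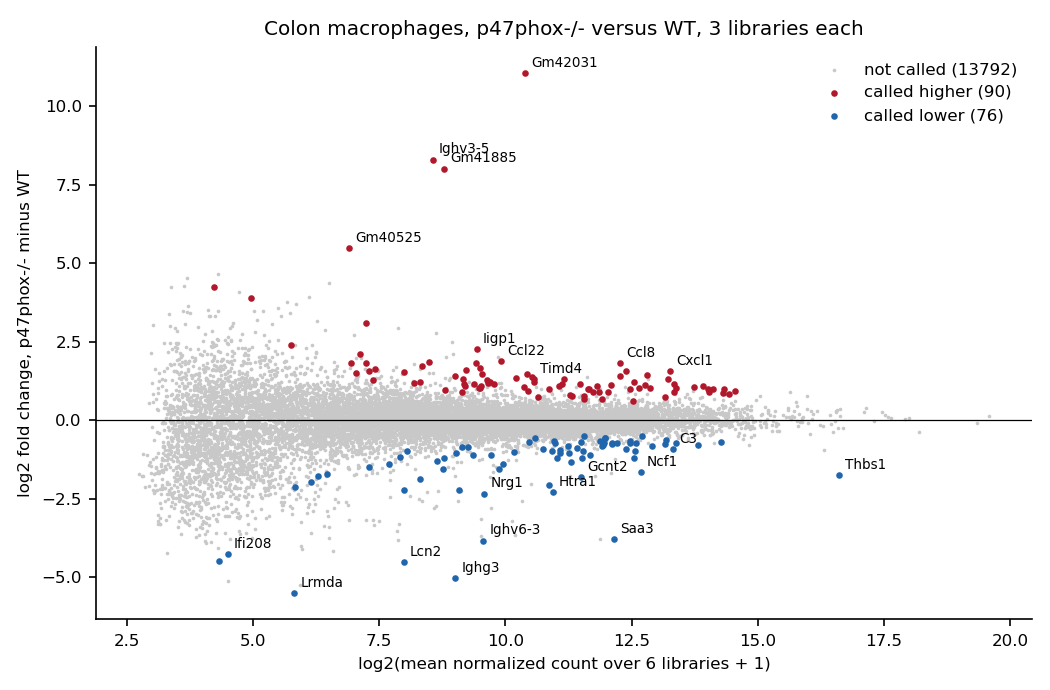
Log2 fold change of p47phox-/- over WT (vertical axis) against log2 of the mean normalized count over the 6 libraries plus 1 (horizontal axis) for the 13958 tested genes. Red points are the 90 genes called higher, blue points the 76 called lower and grey points the rest. The called genes span nearly the whole range of levels, and Thbs1 has the highest count of the labelled ones.

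**Figure D2:**
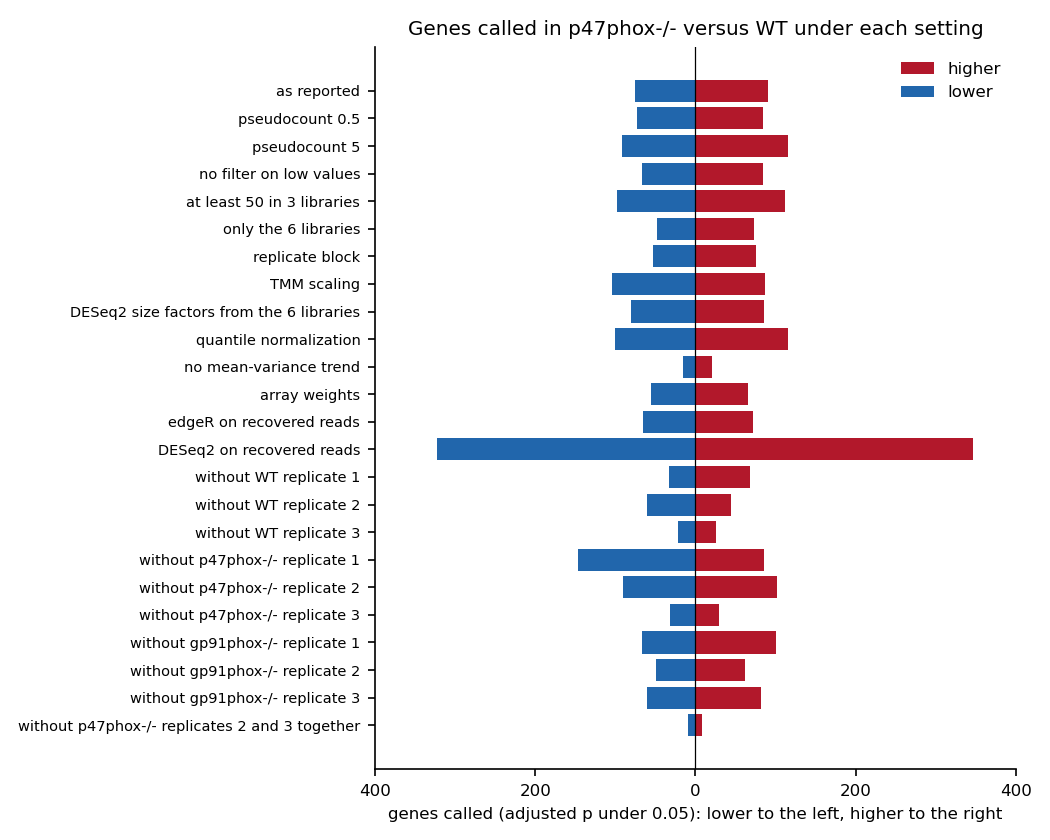
Number of genes called higher (red, to the right) and lower (blue, to the left) in p47phox-/- macrophages under the reported setting and each of the 23 alternatives. The counts run from 17 in all without p47phox-/- replicates 2 and 3 together to 668 with DESeq2.

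Genes of inflammation and of the NF-kB response stood mostly higher in p47phox-/- macrophages. NF-kB is the transcription factor that drives many cytokine and adhesion genes after microbial or cytokine signals. The list of such genes, chosen with earlier results of these data known, had 40 tested members. Of these, 9 rose, 1 fell and 30 did not pass the test, while 0.645% of all tested genes rose and 0.544% fell. The list's median log2 fold change was 0.38, against -0.02 for all tested genes. Values lay wholly above WT in 22 members and wholly below in 4, against 9.48% and 8.5% of all tested genes. The summed level of the list was 297652 to 341834 in WT and 425202 to 458736 in p47phox-/- libraries. None of these calls held without p47phox-/- replicates 2 and 3 together, where the median was 0.47. edgeR called 6 members and DESeq2 17, against these 10, and over all tested genes they called 137 and 668.

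The cytokine gene Tnf had 4418, 3503 and 4757 in WT and 7533, 9494 and 8609 in p47phox-/- libraries (log2 fold change 1.02 ± 0.21 (SE), adjusted p = 0.0363). Every p47phox-/- library stood above every WT library. Il1a, an alarm cytokine that signals through the IL-1 receptor, had 1838, 1481 and 2024 in WT against 4068, 3945 and 3834 (log2 fold change 1.16 ± 0.24 (SE), adjusted p = 0.0422). The p47phox-/- values were close together and far above the highest WT value. Nfkbia, which encodes the inhibitor that holds NF-kB in the cytoplasm and is itself an NF-kB target, had 14829, 15009 and 13434 in WT against 26539, 26314 and 26449.8 (log2 fold change 0.88 ± 0.15 (SE), adjusted p = 0.0177). Its 3 p47phox-/- libraries were nearly equal. The adhesion molecule Icam1, which binds leukocyte integrins, had 12479, 10346 and 12453 in WT against 18394, 23223 and 23567 (log2 fold change 0.88 ± 0.14 (SE), adjusted p = 0.0116). Vcam1, another integrin ligand, had 12089, 11029.6 and 12401 in WT against 26424, 20325 and 23549 (log2 fold change 0.98 ± 0.16 (SE), adjusted p = 0.0133). For both adhesion genes the groups were separate. Nfkbid, a nuclear regulator of NF-kB, also rose (log2 fold change 0.62 ± 0.13 (SE), adjusted p = 0.0391). Other well-known cytokines did not pass the test. Il1b had 25126, 28169 and 26070.0 in WT and 21713, 34221 and 19032 in p47phox-/- libraries, with overlap, and Il6 only 53.9, 39.6 and 56.7 in WT against 60.4, 88.8 and 89.5, separate at low counts (adjusted p = 0.635). The inducible nitric oxide synthase Nos2 had 95.3, 68.3 and 88.7 in WT against 34.4, 22.9 and 51.5, separate as well (adjusted p = 0.442). The costimulatory genes Cd83 and Cd40 were separate but missed the threshold, at log2 fold changes of 0.76 (adjusted p = 0.0501) and 0.80 (adjusted p = 0.0677). Tnf lost its call in 6 of the 9 fits that left out 1 library (adjusted p = 0.0547 to 0.124) and kept it without p47phox-/- replicate 1 or gp91phox-/- replicate 1 or gp91phox-/- replicate 3. Il1a lost its call in 7 of the 9 fits that left out 1 library (adjusted p = 0.0635 to 0.124) and kept it without gp91phox-/- replicate 1 or gp91phox-/- replicate 3. Nfkbid lost its call in 6 of the 9 fits that left out 1 library (adjusted p = 0.061 to 0.175) and kept it without WT replicate 2 or p47phox-/- replicate 1 or gp91phox-/- replicate 1. Calls were lost without WT replicate 1 for Nfkbia (adjusted p = 0.0576), without WT replicate 3 for Nfkbia and Vcam1 (adjusted p = 0.0578 to 0.104) and without p47phox-/- replicate 3 for Nfkbia, Icam1 and Vcam1 (adjusted p = 0.0654 to 0.083). In the fit of only the 6 libraries, Nfkbid was not called (adjusted p = 0.0746). The calls of Tnf, Il1a and Nfkbid were also not made by edgeR (adjusted p = 0.0534, 0.0585 and 0.0561).

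Promoter sequence was available for 7 of the 10 called members of this list. It was searched because these genes share NF-kB as a known regulator, which is also why they are on the list, so a match is not independent of the choice. In the 250 bases before the start of each gene, both strands were searched for 2 motifs of the NF-kB type, GGAANNTCC and GGGNN followed directly by TTTCC, which can overlap each other (N is any base). Tnf, Cxcl1, Cxcl2, Icam1 and Nfkbia had a match, and Il1a and Nfkbid, the latter in all 3 windows of the table, had none of these letters there. Of all 32851 promoters of the table, 3.59% had the first motif in such a window, 1.41% the second and 4.61% either. The sequences are from RefSeq in build GRCm38.p6, given 5′ to 3′ on the strand of the gene, with bases that match a motif on either strand in capitals. They are shown for the 5 genes with a match.
Tnf (chr17:35202008-35202257, minus strand): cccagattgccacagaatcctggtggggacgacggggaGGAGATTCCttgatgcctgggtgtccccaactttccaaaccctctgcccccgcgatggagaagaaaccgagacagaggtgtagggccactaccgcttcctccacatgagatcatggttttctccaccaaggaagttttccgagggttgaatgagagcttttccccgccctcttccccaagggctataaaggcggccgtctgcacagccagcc
Cxcl1 (chr5:90890995-90891244, plus strand): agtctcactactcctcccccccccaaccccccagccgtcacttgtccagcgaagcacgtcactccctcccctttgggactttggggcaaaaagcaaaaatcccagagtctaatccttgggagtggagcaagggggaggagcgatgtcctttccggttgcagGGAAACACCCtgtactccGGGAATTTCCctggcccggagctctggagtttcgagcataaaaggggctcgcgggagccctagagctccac
Cxcl2 (chr5:90903649-90903898, plus strand): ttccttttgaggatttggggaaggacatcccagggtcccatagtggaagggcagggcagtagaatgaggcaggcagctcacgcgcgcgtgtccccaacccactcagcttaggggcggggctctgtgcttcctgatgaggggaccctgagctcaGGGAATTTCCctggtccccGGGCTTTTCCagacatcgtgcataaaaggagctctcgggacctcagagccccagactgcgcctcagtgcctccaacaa
Icam1 (chr9:21015690-21015939, plus strand): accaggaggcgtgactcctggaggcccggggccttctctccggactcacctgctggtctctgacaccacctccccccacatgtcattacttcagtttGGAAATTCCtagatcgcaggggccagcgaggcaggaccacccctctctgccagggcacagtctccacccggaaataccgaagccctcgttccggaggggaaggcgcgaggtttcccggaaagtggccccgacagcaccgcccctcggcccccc
Nfkbia (chr12:55492648-55492897, minus strand): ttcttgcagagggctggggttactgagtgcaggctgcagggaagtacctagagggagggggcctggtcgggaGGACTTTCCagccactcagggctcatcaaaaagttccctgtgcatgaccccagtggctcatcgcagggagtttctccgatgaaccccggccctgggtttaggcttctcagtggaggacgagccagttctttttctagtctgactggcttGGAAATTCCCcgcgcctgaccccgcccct
In Cxcl1 the first match began 89 bases before the start and the last 70. In Cxcl2 these distances were 97 and 78, and in Nfkbia 178 and 29. The single matches of Tnf and Icam1 began 212 and 153 bases before the start. Ccl2, Ccl5 and Vcam1 were the other called members.

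Chemokine genes, whose products attract leukocytes, moved in both directions, most of them up. Of 28 tested CC and CXC chemokines, 7 rose, 2 fell and 19 were not called, with a median log2 fold change of 0.49. Over all tested genes 0.645% rose and 0.544% fell. The called members Ccl2, Cxcl1, Cxcl2 and Ccl5 were also on the inflammatory list. Values lay wholly above WT in 14 of the chemokines and wholly below in 2, against 9.48% and 8.5% of all tested genes. The summed level of the list was 92007 to 110601 in WT and 149110 to 182297 in p47phox-/- libraries. Of all tested genes edgeR called 137 and DESeq2 668, and of these chemokines they called 8 and 15. None was called without p47phox-/- replicates 2 and 3 together.

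Monocyte-attracting CC chemokines lie together on chromosome 11, and 3 of the 5 tested genes there rose, against 0.645% of all tested genes. The region was drawn around the called genes Ccl2 and Ccl8 after their values were seen, so this count is largely fixed by the choice. Ccl2 had 4747, 3024 and 3961 in WT and 9416, 10878 and 10769 in p47phox-/- libraries (log2 fold change 1.43 ± 0.24 (SE), adjusted p = 0.0159). Ccl8 had 2031, 1836 and 2671 in WT against 6486, 9175 and 7442 (log2 fold change 1.82 ± 0.26 (SE), adjusted p = 0.00764). Ccl12 had lower counts, with 239, 288 and 296 in WT against 534, 1009 and 700.2 (log2 fold change 1.40 ± 0.27 (SE), adjusted p = 0.0283). In all of these genes each p47phox-/- library exceeded each WT library. Their neighbour Ccl7 had 5539.6, 3175 and 4154 in WT against 9651, 11910.4 and 9420.3, separate as well, but it was not called (log2 fold change 1.30, adjusted p = 0.0614). Ccl11, the eosinophil attractant of the same cluster, stayed below 100 normalized counts in all 6 libraries and overlapped. The neutrophil-attracting CXC chemokines lie together on chromosome 5. Cxcl1 had 5761, 4975 and 4155 in WT against 14349, 17113 and 12365 (log2 fold change 1.56 ± 0.23 (SE), adjusted p = 0.00795), and Cxcl2 had 18114, 14882 and 16830.1 in WT against 31229.8, 33296 and 30179 (log2 fold change 0.93 ± 0.20 (SE), adjusted p = 0.0437). For both, the lowest p47phox-/- library lay far above the highest WT library. Pf4, a CXC chemokine also known from platelets, had 8499, 7238 and 5957 in WT against 12069, 15889.6 and 12713 (log2 fold change 0.91 ± 0.16 (SE), adjusted p = 0.0189). Cxcl3, next to them, was separate but not called (702, 456 and 561 in WT and 1079, 1652 and 1188 in p47phox-/-, adjusted p = 0.133), and Ppbp, between Cxcl5 and Pf4, overlapped.

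Chemokines elsewhere went both ways. Ccl22, which attracts regulatory and helper T cells through CCR4, had 329, 530.1 and 383 in WT and 1344, 1533 and 1650.1 in p47phox-/- libraries (log2 fold change 1.89 ± 0.31 (SE), adjusted p = 0.0152). Its partner at the same receptor, Ccl17, was low in WT (0, 22.0 and 19.2) and reached 84.8, 116 and 98.1 in p47phox-/- libraries, but was not called (adjusted p = 0.136). Ccl5, which attracts T cells and monocytes, fell from 2650.0, 3485 and 2847 in WT to 678, 682 and 755 in p47phox-/- libraries (log2 fold change -2.08 ± 0.30 (SE), adjusted p = 0.00795). The 3 p47phox-/- values of Ccl5 were nearly equal. Cxcl13, the B cell attractant, had 353, 451 and 677 in WT and 214, 131 and 74.3 in p47phox-/- libraries (log2 fold change -1.89 ± 0.35 (SE), adjusted p = 0.0266). Among other chemokines, the interferon-induced Cxcl10 had 2154, 2491 and 2203 in WT against 1972, 2367 and 2244, with overlapping groups. Ccl8, Cxcl1 and Ccl5 kept their calls in all 9 fits that left out 1 library. Cxcl2 lost its call in 7 of the 9 fits that left out 1 library (adjusted p = 0.0531 to 0.146) and kept it without gp91phox-/- replicate 1 or gp91phox-/- replicate 3. The threshold was missed without WT replicate 1 for Ccl12 and Ccl22 (adjusted p = 0.0604 to 0.102), without WT replicate 2 for Ccl2, Ccl12, Pf4 and Cxcl13 (adjusted p = 0.0561 to 0.0673) and without WT replicate 3 for Ccl2, Ccl12, Pf4, Ccl22 and Cxcl13 (adjusted p = 0.0755 to 0.134). Calls ended without p47phox-/- replicate 2 for Ccl12 (adjusted p = 0.0561) and without p47phox-/- replicate 3 for Ccl2, Ccl12, Pf4, Ccl22 and Cxcl13 (adjusted p = 0.0719 to 0.0982). With the 6 libraries alone, Cxcl13 was not called (adjusted p = 0.0532).

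**Figure D3:**
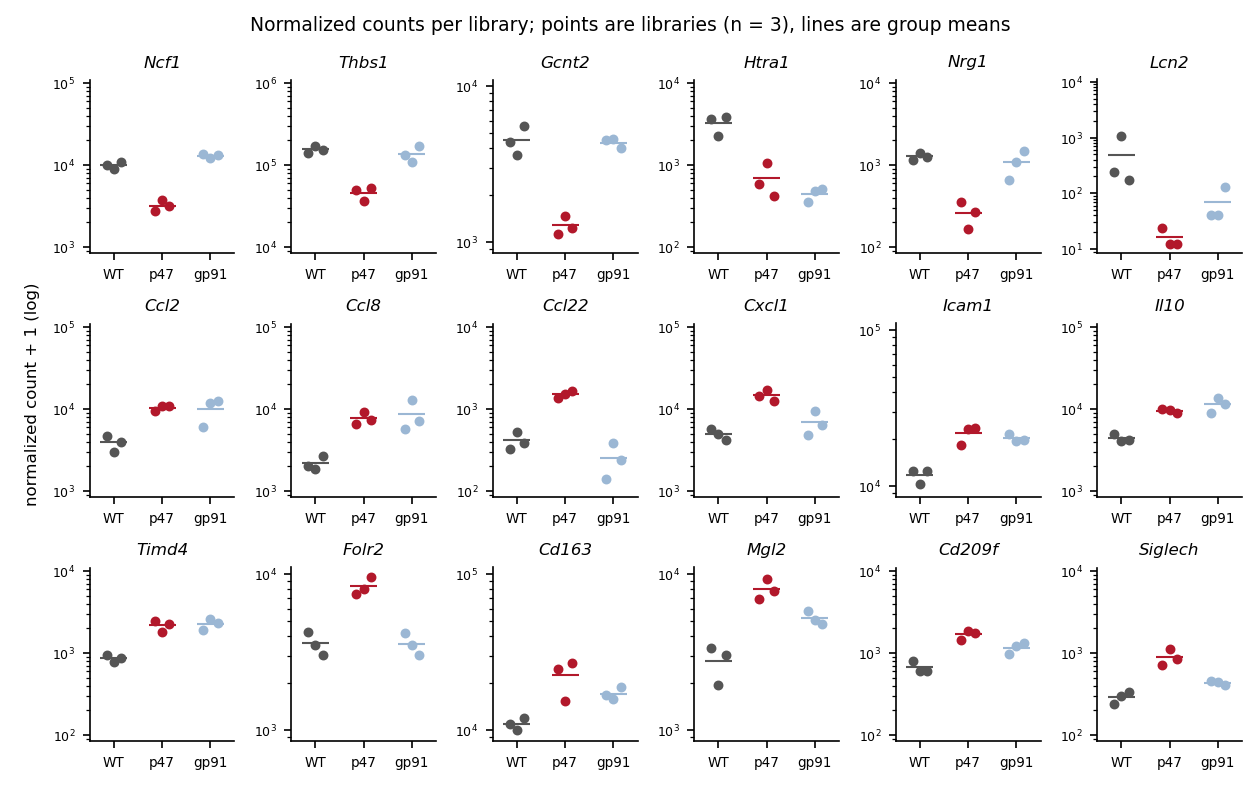
Normalized count plus 1 (log axis) of 18 genes in the 3 WT, 3 p47phox-/- and 3 gp91phox-/- libraries. Points are libraries and lines are group means. For each of these genes the red p47phox-/- points lie wholly above or wholly below the dark grey WT points, while the light blue gp91phox-/- points lie near WT in some panels (Thbs1, Gcnt2, Folr2) and near p47phox-/- in others (Timd4, Il10, Htra1).

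Receptors and products of mature, tissue-resident gut macrophages rose in part. Of 37 tested genes of this list, 6 rose, 1 fell and 30 were not called, with a median log2 fold change of 0.26 (over all tested genes 0.645% rose and 0.544% fell). Without p47phox-/- replicates 2 and 3 together, Timd4 alone rose among these 37, the fall of Gpnmb was not called, Cx3cr1 was called lower instead, and the median was 0.07. Timd4, a receptor for phosphatidylserine on dying cells and a marker of long-lived macrophages, had 958, 784 and 859.5 in WT and 2447, 1787 and 2273 in p47phox-/- libraries (log2 fold change 1.31 ± 0.16 (SE), adjusted p = 0.00411). It was called in every one of the 23 alternatives. Folr2, a folate receptor of tissue-resident macrophages, had 4248, 3520.1 and 3038 in WT against 7449.9, 8047 and 9569.9 (log2 fold change 1.22 ± 0.16 (SE), adjusted p = 0.0053). The haemoglobin scavenger receptor Cd163 had 10979.7, 10011 and 11865 in WT against 24623, 15411 and 26969 (log2 fold change 0.99 ± 0.19 (SE), adjusted p = 0.0288), with p47phox-/- replicate 2 the lowest of its group. Il10, the anti-inflammatory cytokine typical of gut macrophages, rose from 4972, 4028 and 4232 to 9991, 9658 and 8883 (log2 fold change 1.11 ± 0.15 (SE), adjusted p = 0.00644). Both groups were tight and separate. The lectin gene Cd209f, a relative of DC-SIGN, had 797, 611 and 597 in WT against 1439, 1861 and 1747 (log2 fold change 1.34 ± 0.17 (SE), adjusted p = 0.00469). Trem2, a lipid-sensing receptor, had 1717, 1950.2 and 1755 in WT against 2577, 3711 and 3182 (log2 fold change 0.79 ± 0.15 (SE), adjusted p = 0.0288). The gene that fell was Gpnmb, a glycoprotein of lysosomes, from 10245, 8048 and 6702 to 3786, 3650.4 and 3269 (log2 fold change -1.20 ± 0.20 (SE), adjusted p = 0.0159). Other markers of maturity stayed within the spread: Adgre1 (F4/80) had 51336, 31772 and 47868 in WT against 40112, 34709 and 45863, and the mannose receptor Mrc1 had 43464, 33839 and 48937 in WT against 71074, 34415 and 64724. Lyve1, another marker of long-lived macrophages, had 3775, 2660.3 and 4801 in WT against 8092, 3912 and 10024, with overlap. The fractalkine receptor Cx3cr1 was low in p47phox-/- replicates 1 and 3 and at the WT level in replicate 2, with 4995, 4059.8 and 5542 in WT and 598, 5056 and 899 in p47phox-/- libraries (adjusted p = 0.162). Timd4, Folr2, Il10 and Cd209f kept their calls whichever library was left out. Trem2 lost its call in 6 of the 9 fits that left out 1 library (adjusted p = 0.0516 to 0.128) and kept it without p47phox-/- replicate 1 or gp91phox-/- replicate 1 or gp91phox-/- replicate 3. The test was not passed without WT replicate 1 for Cd163 and Gpnmb (adjusted p = 0.0648 to 0.0907), without WT replicate 2 for Cd163 and Gpnmb (adjusted p = 0.0525 to 0.0928) and without WT replicate 3 for Cd163 (adjusted p = 0.0967). Calls did not hold without p47phox-/- replicate 1 for Cd163 (adjusted p = 0.0613) and without p47phox-/- replicate 3 for Cd163 and Gpnmb (adjusted p = 0.083 to 0.124). When only the 6 libraries were fitted, Cd163 and Trem2 were not called (adjusted p = 0.0508 to 0.0532).

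Galactose-binding C-type lectins also rose. Mgl2 and Clec10a, neighbouring paralogs that recognise galactose-type sugars and are often raised by interleukin 4, were both higher in p47phox-/- macrophages. Mgl2 had 3355, 1941 and 3042 in WT and 6909, 9301 and 7810.2 in p47phox-/- libraries (log2 fold change 1.55 ± 0.19 (SE), adjusted p = 0.00411). Clec10a had 2329, 2443 and 1725 in WT and 3479.9, 4243 and 5062 in p47phox-/- libraries (log2 fold change 0.98 ± 0.17 (SE), adjusted p = 0.0168). Each p47phox-/- library exceeded each WT library for both genes. Reads shared by such similar genes may be split between them, and the sources do not say how, so the share of each is uncertain. Of 28 tested C-type lectins and genes of alternative activation, these 2 rose and 2 fell, with a median of 0.10 (0.645% and 0.544% of all tested genes). The genes that fell were Vegfa, described with the growth factors, and Clec4a1, a lectin of myeloid cells (log2 fold change -0.51 ± 0.11 (SE), adjusted p = 0.0492). The classical markers of alternative activation were not called: Arg1 had 26.5, 228 and 93.3 in WT against 33.6, 149 and 36.2, and Retnla had 1566, 1549 and 2012 in WT against 3513, 4039.9 and 6060.1, separate with an adjusted p of 0.14. Mgl2 kept its call in each of the 9 fits short of 1 library. Clec4a1 lost its call in 9 of the 9 fits that left out 1 library (adjusted p = 0.0562 to 0.144). Adjusted p rose past the threshold without WT replicate 3 for Clec10a (adjusted p = 0.0856) and without p47phox-/- replicate 3 for Clec10a (adjusted p = 0.0869). Without any gp91phox-/- library, Clec4a1 was not called (adjusted p = 0.11).

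Genes of monocytes moved in both directions. Of 28 tested, 1 rose, 3 fell and 24 were not called (over all tested genes 1.19% were called), and the median was -0.085. Neither the rise nor the falls were called without p47phox-/- replicates 2 and 3 together. Values lay wholly below WT in 9 of the 28 and wholly above in 3, against 8.5% and 9.48% of all tested genes. F13a1, the A chain of coagulation factor XIII and a gene of monocytes and of perivascular macrophages, had 12096, 14483 and 14519 in WT and 29655, 19706 and 33463 in p47phox-/- libraries (log2 fold change 0.98 ± 0.19 (SE), adjusted p = 0.0292). The sorting receptor Sorl1 had 7105, 8439 and 8461 in WT against 5586, 3751 and 3212 (log2 fold change -0.97 ± 0.19 (SE), adjusted p = 0.0297), and Treml4, a receptor of nonclassical monocytes, 555, 751 and 415 in WT against 229, 246 and 206 (log2 fold change -1.30 ± 0.26 (SE), adjusted p = 0.0327). The third gene that fell was Thbs1. Ly6c2, which encodes an Ly6C antigen, had 278, 525 and 302 in WT and 478, 265 and 476 in p47phox-/- libraries, and Ccr2, the receptor for Ccl2, 2248, 4733 and 2901 in WT against 2233, 1939.5 and 2961. Both overlapped between groups. Cells were sorted as low in Ly6C, which limits what Ly6c2 can show. The lipid-associated list, which shares Trem2 and Gpnmb with the resident list, had 1 member higher and 2 lower of 28, with a median of 0.03. Angptl4, a secreted inhibitor of lipoprotein lipase, fell from 322, 355 and 572 to 73.0, 112 and 75.3 (log2 fold change -2.23 ± 0.31 (SE), adjusted p = 0.00644). Its WT and p47phox-/- values were far apart. The lipid droplet gene Plin2 was lower without overlap but not called (adjusted p = 0.371), and Lpl and Abca1 overlapped. Angptl4 kept its call in every fit with 1 library left out. Calls were lost without WT replicate 1 for F13a1, Sorl1 and Treml4 (adjusted p = 0.0607 to 0.11), without WT replicate 2 for F13a1, Sorl1 and Treml4 (adjusted p = 0.0641 to 0.101) and without WT replicate 3 for F13a1 and Sorl1 (adjusted p = 0.104 to 0.142). The threshold was missed without p47phox-/- replicate 1 for F13a1 and Treml4 (adjusted p = 0.0562 to 0.0613), without p47phox-/- replicate 2 for Sorl1 (adjusted p = 0.0649) and without p47phox-/- replicate 3 for F13a1, Sorl1 and Treml4 (adjusted p = 0.124). In the fit of only the 6 libraries, Sorl1 was not called (adjusted p = 0.0508).

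Several extracellular members of the TGF-beta pathway were lower in p47phox-/- macrophages. TGF-beta is secreted in a latent form, must be released from it, and then signals through receptors to Smad proteins. It is known to shape the maturation of gut macrophages. Of 32 tested genes, 1 rose, 4 fell and 27 were not called, with a median of -0.02 (over all tested genes 0.645% rose and 0.544% fell). Among ligands, Tgfb3 fell from 1531, 1109 and 1538 in WT to 531, 403 and 492 in p47phox-/- libraries (log2 fold change -1.54 ± 0.23 (SE), adjusted p = 0.00886). Tgfb1, the main ligand in leukocytes, had 20696, 20148 and 18877 in WT against 20121, 24510.1 and 22045, with overlap. Thbs1 encodes thrombospondin 1, a matrix protein able to activate latent TGF-beta, and had the highest mean normalized count, which is not scaled to gene length, of the 166 called genes. It had 138703, 172202 and 153434 in WT and 49319.9, 36643 and 52183 in p47phox-/- libraries (log2 fold change -1.76 ± 0.21 (SE), adjusted p = 0.00302). Every WT library stood far above every p47phox-/- library. Htra1, a secreted protease that can act on TGF-beta family ligands and matrix, fell from 3608, 2277 and 3814 to 591, 1049.8 and 420.1 (log2 fold change -2.30 ± 0.30 (SE), adjusted p = 0.00515). Smad6, an intracellular inhibitor of the related BMP signal, fell from 701, 484 and 664 to 270.3, 275 and 245 (log2 fold change -1.21 ± 0.19 (SE), adjusted p = 0.0116). The gene that rose was Vasn, a membrane protein that binds TGF-beta, from 133, 137 and 200.2 to 634, 615 and 437 (log2 fold change 1.84 ± 0.34 (SE), adjusted p = 0.026). The receptors Tgfbr1 and Tgfbr2 were at log2 fold changes of 0.13 and 0.09 and overlapped. Smad7 and Runx3, targets of the pathway in many leukocytes, were separate and lower but not called (adjusted p = 0.0733 and 0.0643). Without p47phox-/- replicates 2 and 3 together, Htra1 alone of this list was called. Thbs1 and Htra1 kept their calls in all 9 fits that left out 1 library. Vasn lost its call in 6 of the 9 fits that left out 1 library (adjusted p = 0.0561 to 0.0944) and kept it without gp91phox-/- replicate 1 or gp91phox-/- replicate 2 or gp91phox-/- replicate 3. Calls ended without WT replicate 3 for Tgfb3 and Smad6 (adjusted p = 0.0578 to 0.0658).

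A pair of matrix and adhesion genes rose, and so did some markers of stromal cells. Of 39 tested genes of matrix, integrins and adhesion, 2 rose and none fell (over all tested genes 0.645% rose and 0.544% fell). Eln, which encodes elastin, had 417, 444 and 199 in WT and 1329, 714 and 1208 in p47phox-/- libraries (log2 fold change 1.65 ± 0.33 (SE), adjusted p = 0.0369). Tln2, an adaptor between integrins and actin, had 159.9, 169 and 115 in WT against 463, 375 and 657 (log2 fold change 1.73 ± 0.24 (SE), adjusted p = 0.00753). Of 20 markers of fibroblasts and smooth muscle, 19 were tested, 3 rose and all 19 had a positive log2 fold change, with a median of 0.91. Their summed level was 8979 to 12475 in WT and 15494 to 23513 in p47phox-/- libraries, low beside the macrophage genes but separate between groups. The median was 1.15 without p47phox-/- replicates 2 and 3 together, and DESeq2 called 11 of these markers, against 668 of all tested genes. Sparc, a matricellular protein, had 1613, 1269 and 1241 in WT against 3297, 2444 and 2947 (log2 fold change 1.08 ± 0.16 (SE), adjusted p = 0.00841). Col3a1, a fibrillar collagen, had 2545, 2231 and 1986 in WT against 6464, 3392 and 4990.2 (log2 fold change 1.09 ± 0.20 (SE), adjusted p = 0.0237), and the smooth muscle actin Acta2 449, 308 and 318 in WT against 932, 765 and 695 (log2 fold change 1.16 ± 0.20 (SE), adjusted p = 0.0159). In each of these genes p47phox-/- libraries stood above all WT libraries. Pdgfra, a defining fibroblast receptor, had 118, 98.4 and 106 in WT against 222, 141 and 164, separate but not called (adjusted p = 0.329). Bgn, which is X-linked, was at 0. The part of stromal RNA in the values of Eln, Tln2, Thbs1 or the chemokines was not tested. Tln2 kept its call whichever library was left out. Eln lost its call in 6 of the 9 fits that left out 1 library (adjusted p = 0.0525 to 0.139) and kept it without p47phox-/- replicate 2 or gp91phox-/- replicate 1 or gp91phox-/- replicate 3. The test was not passed without WT replicate 2 for Col3a1 and Acta2 (adjusted p = 0.0552 to 0.0673), without WT replicate 3 for Sparc, Col3a1 and Acta2 (adjusted p = 0.0571 to 0.128) and without p47phox-/- replicate 3 for Col3a1 (adjusted p = 0.105).

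Growth factors changed in both directions. Of 30 tested genes, 2 rose, 2 fell and 26 were not called, and the median was 0.41 (over all tested genes 0.645% rose and 0.544% fell). Among ligands of ErbB receptors, Nrg1, a neuregulin that acts on epithelium and nerves, fell from 1165, 1403 and 1244 in WT to 353, 166 and 265 in p47phox-/- libraries (log2 fold change -2.34 ± 0.30 (SE), adjusted p = 0.00461). Nrg2, its less abundant relative, rose from 67.1, 115 and 70.4 to 261, 236 and 264 (log2 fold change 1.63 ± 0.28 (SE), adjusted p = 0.0159). Hbegf, a ligand of the EGF receptor, rose from 1113, 601 and 793 to 2201, 1772 and 2334 (log2 fold change 1.37 ± 0.23 (SE), adjusted p = 0.0159). The groups were separate for all of these, and most widely in Nrg1. Areg, another EGF receptor ligand, had 259, 271 and 275 in WT against 206, 324 and 293, with overlap. Vegfa, the main growth factor of blood vessels, fell from 6173, 7357 and 7818 to 4004, 4767 and 3969 (log2 fold change -0.74 ± 0.15 (SE), adjusted p = 0.0402). Nrg1 kept its call in each of the 9 fits short of 1 library. Vegfa lost its call in 7 of the 9 fits that left out 1 library (adjusted p = 0.0525 to 0.184) and kept it without p47phox-/- replicate 2 or gp91phox-/- replicate 1. Calls did not hold without WT replicate 1 for Nrg2 (adjusted p = 0.0547), without WT replicate 2 for Hbegf (adjusted p = 0.055), without WT replicate 3 for Nrg2 and Hbegf (adjusted p = 0.0779 to 0.0829) and without p47phox-/- replicate 3 for Nrg2 and Hbegf (adjusted p = 0.064 to 0.083).

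Some acute-phase and antimicrobial genes were lower. Of 33 listed genes 17 were tested, of which 1 rose, 4 fell and 12 were not called, and the median was -0.47. Over all tested genes 0.645% rose and 0.544% fell. Lcn2, the iron-siderophore binding protein lipocalin 2, had 240.3, 1048 and 175 in WT and 22.7, 11.4 and 11.4 in p47phox-/- libraries (log2 fold change -4.52 ± 0.67 (SE), adjusted p = 0.00795). WT replicate 2 was far above the other WT libraries. Saa3, a serum amyloid A made in tissues, had the same order, with 4575, 17911 and 3281 in WT and 505, 509 and 396 in p47phox-/- libraries (log2 fold change -3.79 ± 0.70 (SE), adjusted p = 0.0243). Even the lowest WT library lay far above the highest p47phox-/- library. The complement component C3 was steadier, with 15752, 11821 and 12559 in WT against 7031, 6392 and 7608 (log2 fold change -0.93 ± 0.14 (SE), adjusted p = 0.00795). Pla2g7, an enzyme that degrades platelet-activating factor, fell (log2 fold change -0.70 ± 0.14 (SE), adjusted p = 0.0333), and the protease inhibitor gene Serpina3f rose from 361, 161 and 387 to 784, 779 and 1605 (log2 fold change 1.81 ± 0.34 (SE), adjusted p = 0.0283). Serpina3f belongs to a family of very similar genes, so its count is uncertain. Hp, which encodes haptoglobin, had 706, 1725 and 414 in WT against 138, 213 and 154, separate but not called (adjusted p = 0.141). Lcn2 is also a neutrophil marker. Of 16 neutrophil markers 7 were tested and Lcn2 alone was called, the summed level was 15424 to 18122 in WT and 9975 to 14821 in p47phox-/- libraries, and Ly6g, S100a9, Camp and Ngp were at 0 in all 6 libraries. Lcn2 and C3 kept their calls in every fit with 1 library left out. Pla2g7 lost its call in 6 of the 9 fits that left out 1 library (adjusted p = 0.0509 to 0.142) and kept it without WT replicate 2 or p47phox-/- replicate 2 or gp91phox-/- replicate 1. Adjusted p rose past the threshold without WT replicate 1 for Saa3 and Serpina3f (adjusted p = 0.0511 to 0.0584), without WT replicate 2 for Saa3 and Serpina3f (adjusted p = 0.0595 to 0.0673) and without WT replicate 3 for Serpina3f (adjusted p = 0.0578). Calls were lost without p47phox-/- replicate 1 for Saa3 (adjusted p = 0.0508) and without p47phox-/- replicate 3 for Saa3 and Serpina3f (adjusted p = 0.105 to 0.106). With the 6 libraries alone, Pla2g7 and Serpina3f were not called (adjusted p = 0.0517 to 0.0656).

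Interferon-induced genes gave a call in each direction, and 30 of 50 tested had a positive log2 fold change. Of the 50, 1 rose, 1 fell and 48 were not called (1.19% of all tested genes were called), with a median of 0.165. Values lay wholly above WT in 16 members and wholly below in 4, against 9.48% and 8.5% of all tested genes, and the summed level of the list was 71802 to 77070 in WT and 85953 to 86854 in p47phox-/- libraries. The gene that rose, Iigp1, lies in a cluster of immunity-related GTPases, which attack vacuoles that hold pathogens, on chromosome 18. Iigp1 (chr18:60373616-60392634) had 204, 168 and 336 in WT and 1136, 714 and 1581 in p47phox-/- libraries (log2 fold change 2.26 ± 0.34 (SE), adjusted p = 0.00886). Its neighbours Gm4951 and F830016B08Rik, chosen after their values were seen, also rose. Gm4951 had 40.6, 52.1 and 56.7 in WT and 242, 293 and 141 in p47phox-/- libraries (log2 fold change 2.10 ± 0.34 (SE), adjusted p = 0.0128). F830016B08Rik had 34.0, 11.0 and 64.9 in WT and 338, 283 and 172 in p47phox-/- libraries (log2 fold change 3.08 ± 0.53 (SE), adjusted p = 0.0159). All p47phox-/- values of the 3 genes exceeded all WT values. Within 200000 bases of them, the other 3 tested genes, Smim3, Dctn4 and Rbm22, were at 0.16, -0.01 and -0.03. These GTPases are alike in sequence, so how reads were shared between them is uncertain. Related genes elsewhere were higher without overlap but not called: Irgm1 had 854, 986 and 1036 in WT and 1298, 1259.9 and 1344 in p47phox-/- libraries (adjusted p = 0.379), and Igtp 606, 630.0 and 594 in WT against 809, 792 and 1064 (adjusted p = 0.164). The type I interferon target Ifit1 overlapped. Ifi208, a member of the interferon-inducible p200 family, fell to near 0 and is described with the genes that were nearly absent in 1 group. Iigp1, Gm4951 and F830016B08Rik kept their calls in all 9 fits that left out 1 library.

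Some chaperones of the endoplasmic reticulum were lower. Of 28 tested genes of the unfolded protein response, 3 fell, none rose and 25 were not called, and the median was -0.29 (over all tested genes 0.544% fell and 0.645% rose). Values lay wholly below WT in 14 members and wholly above in 1, against 8.5% and 9.48% of all tested genes. DESeq2 called 9 members of the list, against 668 of all 13958 tested genes. The chaperone Hyou1 had 9422, 9795 and 10106 in WT and 5813, 4668 and 6223 in p47phox-/- libraries (log2 fold change -0.82 ± 0.14 (SE), adjusted p = 0.0153). The disulfide isomerase Pdia4 had 6305, 5058 and 5259.5 in WT against 3111, 3494 and 3338 (log2 fold change -0.74 ± 0.12 (SE), adjusted p = 0.0149), and Creld2, another helper of folding, 2529.9, 2701 and 2276 in WT against 1303, 1829.6 and 1423 (log2 fold change -0.73 ± 0.16 (SE), adjusted p = 0.0475). These groups were separate. The chaperone Hspa5 (BiP) overlapped with 78021, 79481 and 91937 in WT against 90455, 100589 and 88279, and the stress factors Ddit3 and Xbp1 were at log2 fold changes of -0.04 and -0.13. Creld2 lost its call in 7 of the 9 fits that left out 1 library (adjusted p = 0.0636 to 0.147) and kept it without p47phox-/- replicate 2 or gp91phox-/- replicate 1. The threshold was missed without WT replicate 1 for Pdia4 (adjusted p = 0.0511), without WT replicate 3 for Hyou1 and Pdia4 (adjusted p = 0.0578 to 0.0826) and without p47phox-/- replicate 3 for Pdia4 (adjusted p = 0.0642). When only the 6 libraries were fitted, Creld2 was not called (adjusted p = 0.0812).

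Among genes outside these lists, Gcnt2 and Adam33 were called in every alternative. Gcnt2 (chr13:40859768-40960892), an enzyme that branches poly-lactosamine chains, fell from 4392, 3623 and 5562 in WT to 1128, 1462 and 1232 in p47phox-/- libraries (log2 fold change -1.81 ± 0.16 (SE), adjusted p = 0.000553). The 5 other tested genes within 500000 bases of Gcnt2 were not called, where 1.19% of all tested genes were. Adam33, a membrane metalloprotease, rose from 436, 379.6 and 355 to 1055, 1060.3 and 1137 (log2 fold change 1.48 ± 0.15 (SE), adjusted p = 0.00125). The libraries of a group were close together in Adam33, while the WT libraries of Gcnt2 spread from 3623 to 5562. In both genes the groups were far apart.

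Other genes that fell were Tmem26, with 800.5, 666 and 1211 in WT against 164, 231 and 168 (log2 fold change -2.22 ± 0.27 (SE), adjusted p = 0.00359), and the drug efflux transporter Abcb1a, with 684, 560.3 and 683 in WT against 180.5, 339 and 167 (log2 fold change -1.56 ± 0.26 (SE), adjusted p = 0.0152). The matrix protein gene Spon1 (log2 fold change -1.39) and the G protein-coupled receptor Gpr35 (-1.10) fell too. The nuclear lamina gene Lmnb1 had 6776, 7603 and 6691 in WT against 3914, 3840.3 and 3356 (log2 fold change -0.92 ± 0.13 (SE), adjusted p = 0.0064). Entpd6, Rrp1b, Rassf3, Eprs and Epb41 also fell, with log2 fold changes of -1.12, -1.06, -0.74, -0.73 and -0.68. All of these were separate between groups.

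Among other genes that rose, Mafk, a small Maf protein that pairs with Nrf2 and Bach1 on DNA, had 9377, 8089 and 9481 in WT and 18651, 18968 and 17896 in p47phox-/- libraries (log2 fold change 1.05 ± 0.12 (SE), adjusted p = 0.00302). The libraries of each group were close together and the groups far apart. Cbr2, a carbonyl reductase of resident macrophages, had 6211, 4995 and 5021 in WT against 11339, 13146 and 16323 (log2 fold change 1.32 ± 0.17 (SE), adjusted p = 0.00414), and Fcna, a ficolin that recognises bacterial sugars, 3348, 2771 and 2009 in WT against 6631, 5571 and 9235 (log2 fold change 1.40 ± 0.26 (SE), adjusted p = 0.0247). Pmp22, a membrane protein of myelin and other cells, had 6923, 5969.7 and 6407 in WT against 14299.7, 12662 and 15963 (log2 fold change 1.15 ± 0.17 (SE), adjusted p = 0.00764). Plau, the urokinase plasminogen activator, rose by 1.09 on the log2 scale, the calcium-binding Chp2 by 1.47, the recombination gene Rad51b by 1.57 and the transporter Slc45a3 by 1.81. Gcnt2, Adam33, Tmem26, Lmnb1, Entpd6, Rrp1b, Mafk, Cbr2 and Pmp22 kept their calls whichever library was left out. Calls ended without WT replicate 1 for Abcb1a, Epb41, Chp2 and Slc45a3 (adjusted p = 0.0511 to 0.0648), without WT replicate 2 for Spon1, Gpr35, Rassf3, Fcna and Slc45a3 (adjusted p = 0.0582 to 0.104) and without WT replicate 3 for Abcb1a, Spon1, Gpr35, Rassf3, Eprs, Epb41, Fcna, Chp2, Rad51b and Slc45a3 (adjusted p = 0.0578 to 0.146). The test was not passed without p47phox-/- replicate 2 for Spon1 (adjusted p = 0.0641), without p47phox-/- replicate 3 for Abcb1a, Spon1, Gpr35, Rassf3, Eprs, Epb41, Fcna, Plau and Chp2 (adjusted p = 0.0622 to 0.126) and without gp91phox-/- replicate 2 for Spon1 (adjusted p = 0.0528).

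Some genes were nearly absent from all libraries of 1 group. Gm42031, a noncoding RNA at chr8:85125923-85131814 in GRCm38.p6, had 0, 0.73 and 0 normalized counts in WT, 3525, 2766 and 1701 in p47phox-/- and 0, 0.60 and 2.68 in gp91phox-/- libraries. This is 1 read over the WT libraries against 9131 over the p47phox-/- libraries, a ratio of 9898 with a 95% counting interval of 1776 to 391005 (exact binomial, which covers counting error only). The fitted log2 fold change of 11.05 depends on the pseudocount (adjusted p = 3.87e-05). None of the other 8 tested genes within 100000 bases was called, among them the lysosomal mannosidase Man2b1 at -0.19. Over all tested genes 1.19% were called. Gm40525 had 5.80, 3.67 and 2.74 in WT and 324, 144 and 227 in p47phox-/- libraries, a ratio of 56.9 (95% counting interval 34.3 to 102.2). Gm41885, chosen after its values were seen, had 4.97, 5.14 and 0 in WT and 642, 1114 and 875 in p47phox-/- libraries, a ratio of 246 (143.6 to 462.5). Neither symbol matched the gene table, so their places are not given here. In gp91phox-/- libraries Gm40525 was at 9.10, 4.22 and 8.05 and Gm41885 at 0.91, 3.62 and 1.79, so that all of these RNAs were abundant in p47phox-/- libraries alone. In the main fit, Gm42031, Gm40525 and Gm41885 met the filter on counts through the p47phox-/- libraries alone. Their separation from WT was thus fixed on entry, and their adjusted p is given as a description. Gm42031 and Gm40525 were called in every alternative, which includes the fit with no filter on low values.

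Lrmda, Mgat4c and Ighv3-5 were also chosen after their values were seen. Lrmda, a gene named for melanocyte differentiation, fell from 123, 82.2 and 115 in WT to 11.8, 0 and 0 in p47phox-/- libraries. The ratio of WT over p47phox-/- was 25.4 (95% counting interval 15 to 47; adjusted p = 0.00886). Ifi208 fell from 29.8, 52.1 and 42.1 to 4.20, 0 and 0.95, a ratio of 23.5 (10.6 to 65.1; adjusted p = 0.0152). Mgat4c, a glycosyltransferase gene, fell from 56.4, 39.6 and 15.5 to 2.52, 0 and 0, and with only 3 reads in p47phox-/- libraries the ratio of 42.7 had an interval of 14.3 to 209.8 (adjusted p = 0.0288). Its call was also lost with edgeR (adjusted p = 0.0534) and with array weights (adjusted p = 0.0521). The residual reads came mostly from p47phox-/- replicate 1. Ifi208 and Mgat4c met the filter on counts through the WT libraries alone, and Ighv3-5 through the p47phox-/- libraries alone. For these genes too, separation was fixed on entry, and adjusted p is a description. In gp91phox-/- libraries Lrmda had 182, 182 and 185 and Ifi208 95.5, 92.9 and 179, above WT in every library. The immunoglobulin segment Ighv3-5 had no read in WT and 1048, 23.7 and 1187 in p47phox-/- libraries, which is at least 911-fold higher when WT is set at 3 reads over the group, although replicate 2 held little of it. Ighg3 and Ighv6-3 fell (log2 fold change -5.03 ± 0.84 (SE), adjusted p = 0.0153, and log2 fold change -3.84 ± 0.46 (SE), adjusted p = 0.00319). Antibody genes stem from B and plasma cells. Of 20 markers of those cells none was called by limma, edgeR or DESeq2, while limma called 1.19% of all tested genes. An unadjusted limma p under 0.05 was found for 1 marker, against 2108 of all 13958 tested genes. The summed level of the 20 markers was 115294 to 320638 in WT and 79452 to 164380 in p47phox-/- libraries. Gm42031, Gm40525, Gm41885 and Ighv6-3 kept their calls in each of the 9 fits short of 1 library. Mgat4c lost its call in 7 of the 9 fits that left out 1 library (adjusted p = 0.0614 to 0.124) and kept it without p47phox-/- replicate 1 or p47phox-/- replicate 2. Calls did not hold without WT replicate 1 for Ighg3 (adjusted p = 0.0671), without WT replicate 2 for Ifi208 and Ighg3 (adjusted p = 0.0578 to 0.0595) and without WT replicate 3 for Lrmda, Ifi208, Ighv3-5 and Ighg3 (adjusted p = 0.0578 to 0.0755). Adjusted p rose past the threshold without p47phox-/- replicate 1 for Ighv3-5 (adjusted p = 0.0556) and without p47phox-/- replicate 3 for Ighv3-5 and Ighg3 (adjusted p = 0.064 to 0.107). Without any gp91phox-/- library, Lrmda, Ifi208 and Mgat4c were not called (adjusted p = 0.0532 to 0.218).

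**Figure D4:**
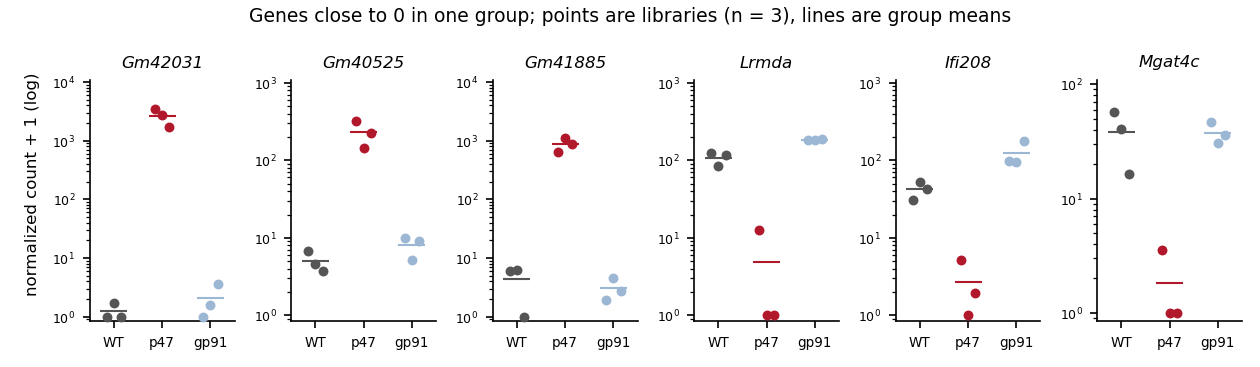
Normalized count plus 1 (log axis) of 6 genes close to 0 in all libraries of 1 group. Points are libraries and lines are group means. Gm42031, Gm40525 and Gm41885 are high in the p47phox-/- libraries alone, and Lrmda, Ifi208 and Mgat4c are low in the p47phox-/- libraries alone.

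Pathways close to the oxidase and to macrophage metabolism gave at most 1 call in each list. Over all tested genes 1.19% were called, so lists of this size would hold few calls in any case. None of 33 tested antioxidant and NRF2 target genes was called, and their median was -0.02. Hmox1, the haem-degrading enzyme, had 42219.9, 19699 and 40455 in WT and 31659.5, 46726 and 44948 in p47phox-/- libraries, Txnrd1, a thioredoxin reductase, 15639, 14993 and 15989 in WT against 18502, 14703 and 15707, and Nqo1, a quinone reductase, 31.5, 26.4 and 30.2 in WT against 9.23, 39.6 and 19.1. All overlapped. No gene was called among 38 of oxidative phosphorylation, 25 of cholesterol metabolism, 17 of MHC class II presentation, 30 of the cell cycle and 30 immediate-early genes. The medians of these lists were 0.21, -0.14, -0.04, -0.18 and 0.02, and the first of these became -0.01 without p47phox-/- replicates 2 and 3 together. Over all 13958 tested genes, 2108 had an unadjusted p under 0.05 in limma. At that threshold the 33 antioxidant genes had 5 members and the other lists, in the order given, 2, 7, 1, 0 and 6. edgeR called none in any of them. DESeq2, which called 668 of all tested genes, called 3 antioxidant genes, 1 of cholesterol metabolism and 1 of MHC class II presentation. Of 29 glycolysis and hypoxia genes Vegfa alone was called, and of 37 lysosome and phagocytosis genes Timd4 alone. The sort took cells positive for MHC class II, so that list cannot show a change in the share of such cells. As examples, the proliferation marker Mki67 had 2187, 2276 and 1508 in WT against 3017, 1546 and 2186, the MHC class II gene H2-Ab1 270305, 220076 and 260202 in WT against 208251, 359472 and 245823, and the immediate-early gene Fos 23959, 21509 and 25455 in WT against 18052, 21215 and 23665.

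The other marker lists of lamina propria cells given here had at most 1 call in each direction, against 1.19% of all tested genes called. Of 20 conventional dendritic cell markers Ccl22 alone rose, the median was 0.34, and the summed level was 47791 to 54392 in WT and 49185 to 52440 in p47phox-/- libraries. The transcription factor Zbtb46, which defines those cells, had 189, 212 and 139.9 in WT against 425, 401 and 297 (adjusted p = 0.0677), separate like Ccl22. Of 12 markers of plasmacytoid dendritic cells, the lectin Siglech rose from 239, 301 and 334 to 712, 1124 and 846 (log2 fold change 1.60 ± 0.20 (SE), adjusted p = 0.00446) and the transcription factor Runx2 fell (log2 fold change -0.84 ± 0.17 (SE), adjusted p = 0.0382), with a summed level of 21536 to 26355 and 21115 to 28463. None of 11 tested markers of T and innate lymphoid cells was called, with a median of 1.23 at low counts and sums of 2605 to 2684 in WT and 3009 to 3635 in p47phox-/- libraries. Il17a was at 0, and Cd3d, Cd3e and Cd3g were too low to be tested. None of 16 epithelial markers was called (sums 2301 to 5473 and 1412 to 3867), nor of 8 eosinophil and mast cell markers (789 to 1098 and 932 to 1148), nor of 12 markers of glia, neurons and interstitial cells (657 to 876 and 626 to 721). Of 16 endothelial markers Pecam1, which macrophages also express, fell from 4809, 2144 and 3869 to 1382, 1874 and 985 (log2 fold change -1.32 ± 0.28 (SE), adjusted p = 0.0475), with sums of 7560 to 13953 and 9034 to 14665. Over all 13958 tested genes, 2108 had an unadjusted limma p under 0.05. Among the marker lists without a call, this held for 5 epithelial, 1 T and innate lymphoid, 2 eosinophil and mast cell and 3 glial and neuronal markers. edgeR called none of them, and DESeq2, which called 668 of all tested genes, called 1 epithelial and 1 eosinophil or mast cell marker. The part of these cells in the other results was not tested. Siglech kept its call in every fit with 1 library left out. Runx2 lost its call in 8 of the 9 fits that left out 1 library (adjusted p = 0.0517 to 0.174) and kept it without p47phox-/- replicate 1. Pecam1 lost its call in 7 of the 9 fits that left out 1 library (adjusted p = 0.0596 to 0.193) and kept it without WT replicate 2 or p47phox-/- replicate 2. In the fit of only the 6 libraries, Runx2 and Pecam1 were not called (adjusted p = 0.0789 to 0.1).

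**Figure D5:**
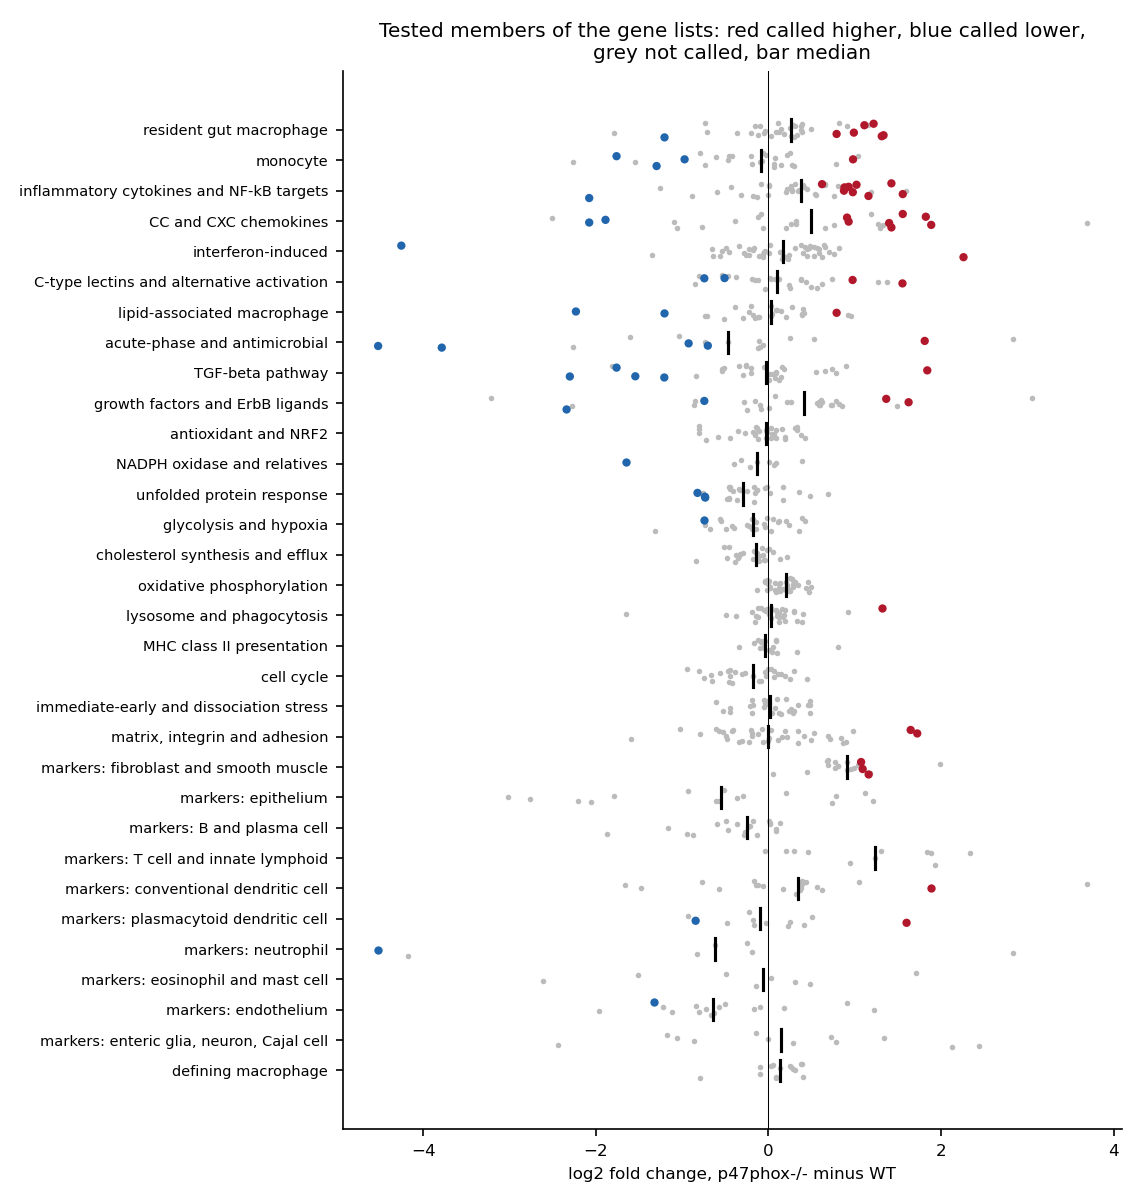
Log2 fold change of p47phox-/- over WT (horizontal axis) for the tested members of the 32 gene lists (rows). Each point is a gene, red when called higher, blue when called lower and grey when not called, and the black bar is the median of the list. The inflammatory and chemokine lists have more red points than any other list, but they share Ccl2, Cxcl1 and Cxcl2. The lists differ in size and were chosen with earlier results of these data known, so the counts do not rank them. Every point of the fibroblast and smooth muscle row lies to the right of 0.

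The gp91phox-/- libraries are labelled as lacking the catalytic subunit instead of the organiser. Both knockouts were compared with the same WT libraries, so their values are given side by side and the direct contrast between knockouts is the test of a difference. That contrast called 1435 of 13958 genes (10.3%). It uses the p47phox-/- libraries on which the genes below were chosen, so its direction for these genes is largely fixed by the choice, and its values describe them. Among genes that differed, Ccl22 had 139, 388 and 238 in gp91phox-/- libraries, below its 1344, 1533 and 1650.1 in p47phox-/- libraries in every case (log2 difference -2.68, adjusted p = 0.000299). Mafk had 7559, 8342 and 8876, close to WT (difference -1.17, adjusted p = 0.000101). Gcnt2 had 4478, 4543 and 3992 and Thbs1 131657, 109175 and 170015, also in or near the range of WT (differences 1.77 and 1.57, adjusted p = 4.28e-05 and 0.000694). C3 had 19465, 20738 and 20674, above WT, while it was below WT in p47phox-/- libraries (difference 1.54, adjusted p = 2.89e-05). For Timd4, Il10 and Htra1 no difference between knockouts was called. Timd4 had 1904, 2611 and 2303 in gp91phox-/- libraries (difference 0.07, adjusted p = 0.83), Il10 9056, 13595 and 11497 (difference 0.24, adjusted p = 0.354), and Htra1 352, 475 and 513 (difference -0.53, adjusted p = 0.296). A p above the threshold does not show that the knockouts are alike in these genes.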

How the data were processed

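RNA of the sorted cells was extracted with the RNeasy Micro kit and sequenced in pairs on a NovaSeq instrument, per the labels' protocols. Reads were demultiplexed with bcl2fastq 2.19, trimmed with Cutadapt, mapped to mm10 with STAR 2.5.2b and counted with featureCounts, per the labels' protocols, and the submitters' processing notes name DESeq2. The annotation and strand setting are not given in the sources used here. The deposited signal is a normalized count, the reads on a gene divided by a size factor of the authors, and 100% of the values came out as whole reads within 0.01. The 9 libraries hold 31141107 to 52797368 reads, and with 3 libraries per group the spread between libraries sets the errors given.

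Normalized counts were tested as log2(value + 1) with limma 3.58.1 in R 4.3.3, in 1 fit of 3 group means over all 9 libraries with a mean-variance trend and Benjamini-Hochberg adjustment over the 13958 genes. Fold changes on this scale understate those of low genes. A gene was called at an adjusted p under 0.05 (two-sided). The script was tested on simulated data. Alternatives were other pseudocounts (0.5 and 5), filters, scalings and weights, edgeR 4.0.16 and DESeq2 1.42.0 on the recovered reads, and libraries left out. Named genes are Ncf1, the 20 largest changes and the 10 highest levels per direction among genes called in both the 9- and the 6-library fit without overlap and with a mean of at least 50, called members of 32 gene lists, and genes called in every alternative. Immunoglobulin segments and unnamed models were left out of the ranked choices. Some genes that met the rule are not reported here. The members and lists were chosen with earlier results of these data known. Gene places and promoters are from RefSeq on GRCm38.p6, the same assembly as mm10, in which 36134 entries matched.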

Additional observations from a re-analysis of the deposited data

Results flagged for a closer look

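Of the 59 named genes that were chosen by size, level or stability, 31 differed between the knockouts in the direct contrast of gp91phox-/- and p47phox-/- libraries at an adjusted p under 0.05 (limma, Benjamini-Hochberg). Over all tested genes that contrast called 1435 of 13958 (10.3%). The values here are log2 differences, gp91phox-/- minus p47phox-/-, so that a positive value means a higher level in gp91phox-/- libraries.

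The genes were chosen on the same p47phox-/- libraries that enter this contrast, so the number that differed and the sign of the difference are largely fixed by the choice. The values are a description. For genes that fell in p47phox-/- macrophages, the difference was 2.04 for Ncf1, whose reads are lowered in the p47phox-/- libraries alone. Among secreted and acute-phase products it was 3.25 for Saa3, 2.03 for Nrg1, 1.81 for Ccl5, 1.57 for Thbs1, 1.54 for C3, 1.39 for Spon1 and 0.73 for Vegfa. Among receptors and enzymes it was 1.77 for Gcnt2, 1.52 for Treml4, 1.26 for Gpr35, 0.56 for Entpd6 and 0.44 for Eprs. Among regulators and structural genes it was 1.13 for Smad6, 0.85 for Lmnb1 and 0.61 for Hyou1.

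For genes that rose in p47phox-/- macrophages, the difference was -10.46 for Gm42031, which depends on the pseudocount since gp91phox-/- libraries held almost no reads, and -4.82 for Gm40525. Among chemokines it was -2.68 for Ccl22 and -1.12 for Cxcl1. Among genes of resident macrophages and sugar recognition it was -1.63 for Fcna, -1.55 for Cbr2 and -1.01 for Siglech. It was -1.67 for Slc45a3, -1.25 for Vasn, -1.17 for Mafk, -1.06 for Adam33, -0.98 for Chp2 and -0.92 for Pmp22. Iigp1, at 1.31, and Ccl12, at 1.05, rose in p47phox-/- macrophages and stood higher still in gp91phox-/- libraries.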

How the results depend on the processing

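None of the 166 called genes changed direction in any of the 23 alternatives, but the number of calls did. It was 37 without the mean-variance trend and 668 with DESeq2 on the recovered reads (575 adjusted p not given by the tool), against 137 with edgeR. Leaving out 1 library at a time gave 48 to 231 calls, with 101 and 105 without WT replicates 1 and 2. Only 17 were called without p47phox-/- replicates 2 and 3 together, where the lone p47phox-/- library is assumed to vary like the other groups. The other alternatives gave 121 to 215. Of 80 named genes, 19 kept their call without the trend and 10 without p47phox-/- replicates 2 and 3. Leaving out WT replicate 3 left 35, and leaving out p47phox-/- replicate 3 left 38. With edgeR 72 kept it, and the 8 others, Tnf, Il1a, Nfkbid, Cxcl2, Clec4a1, Creld2, Eln and Pecam1, had adjusted p of 0.0527 to 0.0585. The replicate block, with the replicate number as a term, gave 129 calls (76 higher, 53 lower) and 73 of the named genes. The numbers do not pair the samples: the correlations of deviations in same-numbered WT and p47phox-/- libraries were -0.0431, -0.00701 and 0.0382. No scaling moved the median of all genes by more than 0.1. Low counts limit genes such as Mgat4c and the T cell markers.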

Other observations

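The genes here were called but lie outside the naming rule, and they were chosen after their values were seen. Complement genes moved in opposite directions. C2, a protease of the classical pathway, had 655, 361 and 646 in WT and 1038, 1441 and 1087 in p47phox-/- libraries (log2 fold change 1.14 ± 0.23 (SE), adjusted p = 0.0342), and C4b, its partner, 9002, 4885 and 7534 in WT against 14198, 11277 and 17388 (log2 fold change 1.02 ± 0.21 (SE), adjusted p = 0.0402). Both groups were separate, and the direction was opposite to that of C3. Cfb, a protease of the alternative pathway, was lower without overlap, with 5698, 8411 and 5375 in WT against 3741, 3559 and 4147, but was not called (adjusted p = 0.156). The MHC class Ib genes H2-Q5 and H2-Q7, which are near-identical relatives and so uncertain in their counts, rose too (log2 fold change 0.78 ± 0.14 (SE), adjusted p = 0.0177, and log2 fold change 0.73 ± 0.14 (SE), adjusted p = 0.0297).

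Slc40a1, which encodes the iron exporter ferroportin, rose from 915, 954 and 768 to 1929, 1408 and 3151 (log2 fold change 1.22 ± 0.24 (SE), adjusted p = 0.0292). Kitl, the ligand of the receptor Kit, had 407, 442 and 595 in WT against 1238, 746 and 1398 (log2 fold change 1.20 ± 0.24 (SE), adjusted p = 0.0363), and Casp4, a sensor of cytosolic lipopolysaccharide, 2927, 2214 and 2649.9 in WT against 4526, 5375 and 4656 (log2 fold change 0.91 ± 0.19 (SE), adjusted p = 0.039). All p47phox-/- values exceeded the WT values. The vitamin D receptor Vdr fell from 2173, 2102 and 2422 to 1011, 1185 and 1329 (log2 fold change -0.93 ± 0.15 (SE), adjusted p = 0.0153), and Ddit4, an inhibitor of mTOR signalling, from 3064, 3219.8 and 2341 to 1381, 1581 and 1474 (log2 fold change -0.95 ± 0.14 (SE), adjusted p = 0.00973). Bcl2l11, which encodes the cell death protein Bim, had 11376, 10092 and 12440.2 in WT against 7569, 7546 and 6506 (log2 fold change -0.65 ± 0.12 (SE), adjusted p = 0.0282). Ddit4 kept its call in all 9 fits that left out 1 library. C4b lost its call in 7 of the 9 fits that left out 1 library (adjusted p = 0.0517 to 0.148) and kept it without WT replicate 1 or p47phox-/- replicate 2. Kitl lost its call in 6 of the 9 fits that left out 1 library (adjusted p = 0.056 to 0.139) and kept it without p47phox-/- replicate 2 or gp91phox-/- replicate 1 or gp91phox-/- replicate 3. Casp4 lost its call in 7 of the 9 fits that left out 1 library (adjusted p = 0.0528 to 0.141) and kept it without gp91phox-/- replicate 1 or gp91phox-/- replicate 3. Calls were lost without WT replicate 1 for Slc40a1 and Bcl2l11 (adjusted p = 0.0861 to 0.0893), without WT replicate 2 for C2, H2-Q5, H2-Q7 and Slc40a1 (adjusted p = 0.0595 to 0.0928) and without WT replicate 3 for C2, H2-Q5, H2-Q7, Slc40a1, Vdr and Bcl2l11 (adjusted p = 0.0723 to 0.142). The threshold was missed without p47phox-/- replicate 1 for Slc40a1 (adjusted p = 0.0511), without p47phox-/- replicate 2 for C2 and H2-Q7 (adjusted p = 0.0568 to 0.0762), without p47phox-/- replicate 3 for C2, H2-Q5, H2-Q7, Slc40a1 and Bcl2l11 (adjusted p = 0.0688 to 0.124) and without gp91phox-/- replicate 2 for C2 and Bcl2l11 (adjusted p = 0.0516 to 0.056). With the 6 libraries alone, C2, C4b, H2-Q5, Slc40a1, Kitl and Bcl2l11 were not called (adjusted p = 0.0508 to 0.0746). The calls of C2, C4b and Casp4 were not made by edgeR (adjusted p = 0.0515, 0.0612 and 0.0541).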
